A study of Mus musculus with 4 samples.

Results

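MHC-II-high macrophages without Mmp12 or Ccr2 were a group of 1072 cell barcodes in the pituitary gland of the mouse, 326 in a 3-week library and 746 in an 8-week library, out of 13956 barcodes in 4 libraries. They were chosen by their own counts. A barcode needed at least 1500 unique molecular identifiers (UMIs, each taken as 1 captured RNA molecule) with under 10% of them mitochondrial, at least 10 UMIs of C1qa, C1qb and C1qc together, at least 20 UMIs of H2-Aa, H2-Ab1 and H2-Eb1 together, and 0 UMIs of Mmp12 and of Ccr2. It also needed under 3 UMIs of the microglial genes Sparc and Siglech together, under 3 of the B cell genes Cd79a and Cd79b, and under 2 of the T cell genes Cd3d, Cd3e and Cd3g. The levels of these 15 genes, and any gene that follows them, are therefore descriptions of how the barcodes were picked.

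Live single CD45+ cells, the leukocytes, were sorted from pituitaries of male C57BL/6N mice, and were run as 4 10x Chromium 3′ libraries, 1 for each age (newborn, 1-week, 3-week, 8-week). No mutant allele and no treatment is labelled for any library. Tissue was digested with collagenase D and DNase and dead cells were gated out. The labels allow for whole glands or separated anterior and posterior parts without saying which entered a library, and the sources used here give no number of pooled animals. With 1 library at each age no replicate spread exists, so age, animal and library cannot be told apart, no test was made, and every interval below is a 95% interval that covers counting error only. The 3-week library held 4767 barcodes, of which 4348 passed the UMI and mitochondrial limits, and the 8-week library 6840, of which 5974 passed. The 3-week and 8-week libraries shared 364 barcode sequences, against 1 to 9 for the other pairs of libraries. Among the MHC-II-high macrophages, 5 of the 326 (1.53%) and 1 of the 746 (0.134%) carried a sequence also present in the other library.

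MHC class II proteins display peptides from the endocytic route to CD4+ T cells. Their alpha and beta chains are made with the invariant chain Cd74, which is cut back in the lysosome and exchanged for peptide with the help of the H2-DM proteins, and the transactivator Ciita switches the whole set on. The complement protein C1q is made by many tissue macrophages. Tissue macrophages of the brain borders and of several organs divide into MHC-II-high and MHC-II-low states, with Ccr2, the receptor for Ccl2, marking cells close to blood monocytes and Mmp12, macrophage elastase, marking some monocyte-derived macrophages.

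Promoters of 3 genes of the MHC class II pathway and of the marker gene Stard13 are printed to show short motifs known from MHC-II promoters. Of 12 genes looked up, 10 had a promoter in the RefSeq table (build GRCm38.p6), H2-Ab1 and Ciita being the unmatched ones. Both strands of the 300 bases from 250 before to 50 after the start were searched for TGATTGG, the Y box bound by NF-Y, and for GCAAC, a part of the X box. The motifs do not overlap. The lines give the stretch from 120 to 21 bases before the start, in the direction of transcription, with both motifs in capitals.
H2-Aa, chr17:34287844-34287943, minus strand: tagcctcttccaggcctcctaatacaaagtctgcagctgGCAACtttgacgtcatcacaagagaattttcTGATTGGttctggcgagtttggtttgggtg
H2-Eb1, chr17:34305747-34305846, plus strand: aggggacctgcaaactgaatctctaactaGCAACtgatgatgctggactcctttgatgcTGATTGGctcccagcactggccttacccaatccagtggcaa
H2-DMb1, chr17:34153071-34153170, plus strand: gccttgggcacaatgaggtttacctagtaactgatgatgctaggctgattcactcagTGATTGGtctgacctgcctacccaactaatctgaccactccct
Stard13, chr5:151190214-151190313, minus strand: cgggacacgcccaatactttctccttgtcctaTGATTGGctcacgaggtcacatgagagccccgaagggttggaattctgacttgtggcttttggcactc
Positions count back from the start RefSeq gives, which for Stard13 lies inside the longer GENCODE span of the gene (151037510 to 151233836). TGATTGG began at position -50 in H2-Aa, -61 in H2-Eb1, -63 in H2-DMb1 and -88 in Stard13. In the full 300 bases it was present in 7 of the 10 genes, and in 7.82% of all 32851 promoters of that length in the table. GCAAC was present in 6 of the 10 and in 35.2% of all promoters. Both were present in 4 of the 10 (H2-Aa, H2-Eb1, H2-Oa and H2-Ob) and in 2.97% of all promoters. H2-DMb1, H2-DMb2 and Stard13 held only TGATTGG, H2-DMa and Ms4a7 only GCAAC, and Ctss neither. Most of the 10 genes belong to the MHC class II pathway, where these motifs were already known. Their counts beside the rates of all promoters are therefore no independent test. H2-DMa and Ms4a7 had 2 promoters each and were counted by gene, whereas the rates count single promoters. A match is a description of letters and not a measured binding site.

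The label was checked against 5 marker genes, of which H2-Aa and C1qa were used by the rule. Levels here are CPM, a gene's UMIs summed over a group of barcodes and scaled to a total of 1000000. H2-Aa stood at 4920 CPM in the 3-week and 6626 CPM in the 8-week MHC-II-high macrophages, and C1qa at 6852 and 6171 CPM. Cd74 stood at 15795 and 19703 CPM. Ms4a7, a membrane protein of the MS4A family used as a marker of border macrophages, stood at 2273 and 2537 CPM. Stard13, a protein with a START domain, stood at 345 and 459 CPM. After every barcode was thinned to 1500 UMIs, Ms4a7 was seen in 94.8% and 94.1% of them, against 1.94% and 2.66% of B cell barcodes and 1.23% and 1.24% of T cell barcodes. Stard13 was seen in 29.1% and 41.0% of them, against 0.138% and 0.426% of B cell barcodes. Unthinned medians were 9922.5 and 9725 UMIs for the MHC-II-high macrophages, 5328.5 and 5869 for the B cell and 7663 and 8437 for the T cell barcodes. H2-Aa and C1qa had to be present by the rule. The other 3 markers were present too, but Ms4a7 and Stard13 were not particular to the MHC-II-high barcodes, as shown against MHC-II-low barcodes of the same limits below.

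The wider macrophage programme was present as well. All 13 genes of the macrophage core list had UMIs in both libraries. Csf1r, the receptor for the macrophage growth factor, stood at 844 and 786 CPM, and Adgre1, which encodes F4/80, at 839 and 825 CPM. Apoe, the main lipid carrier made by macrophages, stood at 32483 and 36631 CPM. Most of the homeostatic microglia list was also present, with 12 of 15 genes at 10 CPM or more in each library. The list summed to 7621 and 8148 CPM, against 9478 and 11567 CPM in all MHC-II-low barcodes and 368 and 324 CPM in B cell barcodes. Cx3cr1 stood at 986 and 990 CPM and Tmem119 at 191 and 192 CPM. The microglial factor Sall1 was near the floor at 0.88 and 1.18 CPM, and Sall3 and Slc2a5 had 0 UMIs. Genes of the other main macrophage and dendritic states were low: Lyve1 at 0.587 and 0 CPM, Cd163 at 4.99 and 1.96 CPM, Folr2 at 6.16 and 2.88 CPM, and the dendritic cell genes Flt3 at 2.64 and 3.8 CPM and Zbtb46 at 7.04 and 5.76 CPM. The mannose receptor Mrc1 was an exception among the border and perivascular genes, at 185 and 217 CPM. Inflammatory messages were abundant: Il1b, which encodes interleukin-1 beta, stood at 3634 CPM with UMIs in 274 of 326 barcodes and at 2720 CPM in 602 of 746. After thinning Il1b was seen in 68.4% and 61.3% of them, against 3.18% and 3.09% of B cell barcodes.

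**Figure D1:**
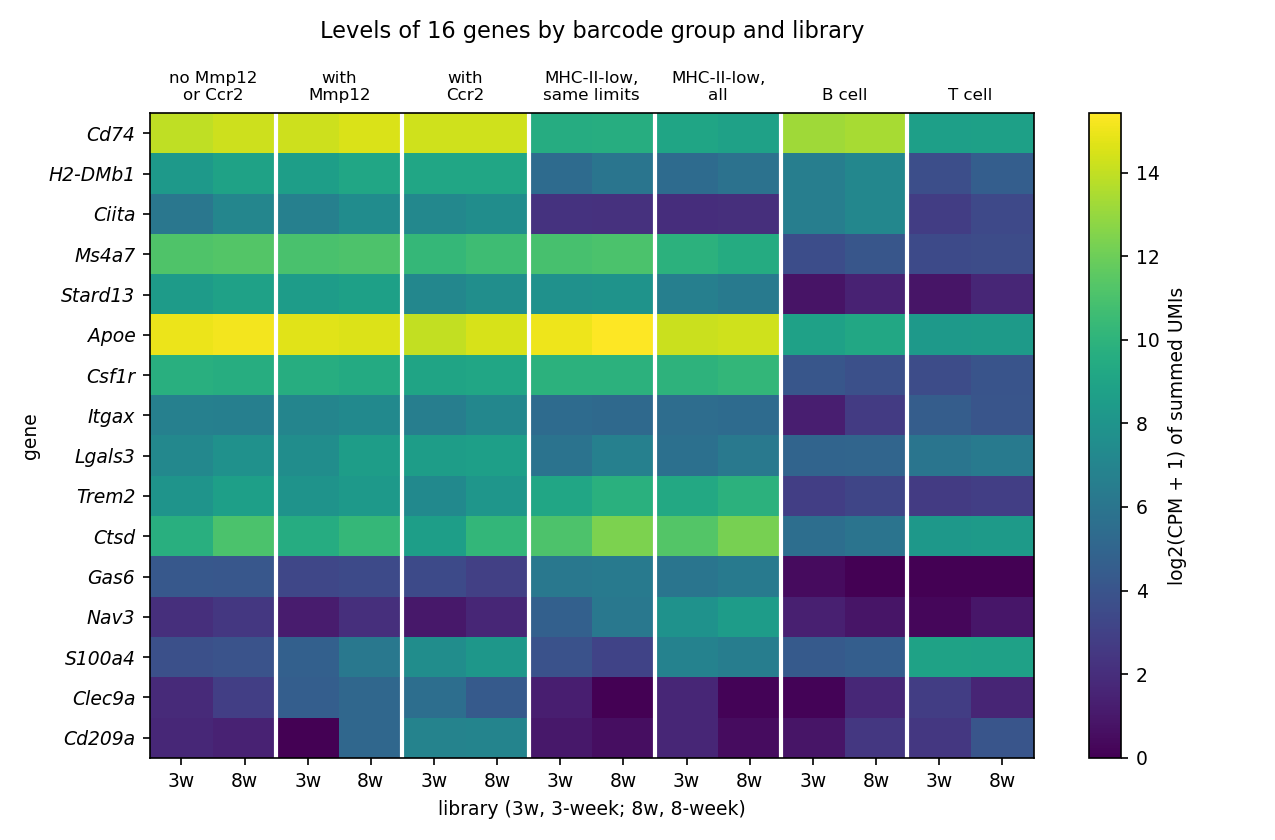
Levels of 16 genes, as log2(CPM + 1) of UMIs summed over the barcodes, in 7 barcode groups (columns in pairs, 3-week then 8-week library). Cd74, H2-DMb1 and Ciita are high in the 3 MHC-II-high groups and in B cells, Ms4a7 and Stard13 are high also in MHC-II-low barcodes of the same limits, and S100a4 and Cd209a are high in the group with Ccr2.

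Messages of other cells were at low summed levels in these barcodes. The rule itself limited Cd79 and Cd3 UMIs, so low B and T cell levels partly describe the choice of barcodes. UMIs of the B cell list were seen in 294 of the 326 and 611 of the 746 barcodes, and those of the endocrine list in 182 and 466. The summed level of the B cell list was 313 CPM at 3 weeks and 225 CPM at 8 weeks, of the T cell list 98.6 and 113 CPM, of the neutrophil list 112 and 126 CPM and of the fibroblast list 0.587 and 0.393 CPM. The NK cell list stood at 88.6 and 219 CPM, and 10 barcodes held 74.5% of those UMIs at 3 weeks and 81.6% at 8 weeks. The pituitary hormone and endocrine list stood at 416 and 276 CPM, with the growth hormone gene Gh at 286 and 244 CPM. Doublet scoring marked 2 of the 326 and 6 of the 746 barcodes, against 99 of 1451 and 242 of 2859 C1q-positive barcodes. The number marked in each library, 182 and 374, was fixed by its size. As the rule limited genes of other cells, the low count too partly describes the choice of barcodes.

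The MHC-II-high macrophages made up a larger share of the leukocyte barcodes in the 8-week library than in the 3-week one. They were 326 of 4348 barcodes at 3 weeks, or 7.50% (exact binomial interval 6.73 to 8.32), and 746 of 5974 at 8 weeks, or 12.5% (11.7 to 13.4). The same rule found 9 of 1866 barcodes in the 1-week library, or 0.482% (0.221 to 0.914), and 2 of 350 in the newborn library, or 0.571%, which is under the 0.857% that 3 barcodes would make. Within the barcodes with at least 10 C1q UMIs the share moved less, from 22.5% of 1451 (20.3 to 24.7) at 3 weeks to 26.1% of 2859 (24.5 to 27.7) at 8 weeks. The 2 last intervals meet at 24.5 to 24.7. In a sort, a share can also move because other cells became fewer or more.

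Barcodes that carried Mmp12, with any number of Ccr2 UMIs, and met the other limits numbered 68 and 442, or 4.69% and 15.5% of the C1q-positive barcodes. Those with Ccr2 and no Mmp12 numbered 66 and 173, or 4.55% and 6.05%. As a share of all MHC-II-high barcodes under the Sparc, Siglech, Cd79 and Cd3 limits, 460 at 3 weeks and 1361 at 8 weeks, those without Mmp12 or Ccr2 were 70.9% (66.5 to 75) and 54.8% (52.1 to 57.5), while those with Mmp12 were 14.8% (11.7 to 18.4) and 32.5% (30.0 to 35.0). Median depths of the Mmp12-positive barcodes were 10117 and 10504 UMIs, close to those without. A barcode with 0 UMIs of Mmp12 may still hold that message below detection.

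**Figure D2:**
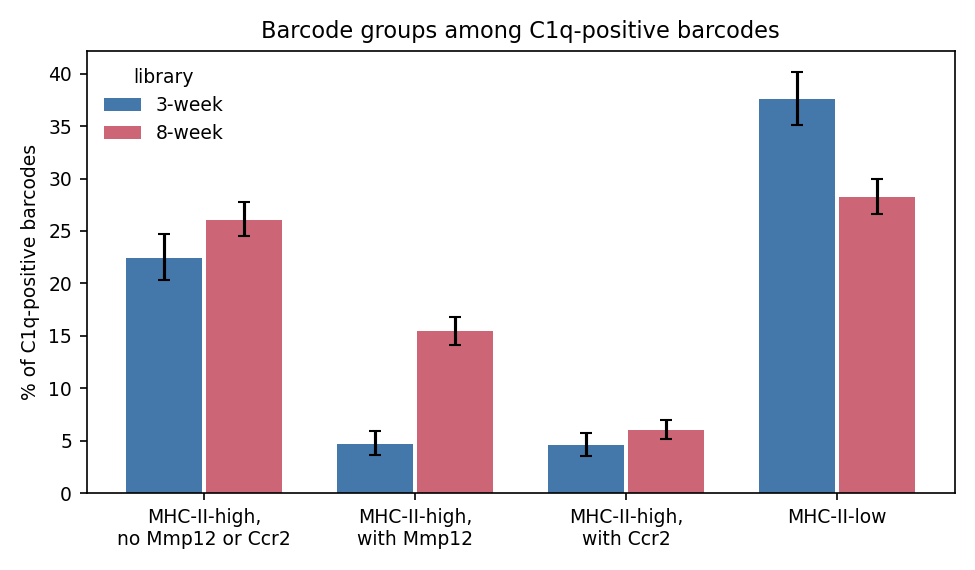
Share of C1q-positive barcodes (at least 10 C1q UMIs, y axis in percent, from 0) that fell in each of 4 groups, in the 3-week and 8-week libraries; error bars are exact 95% binomial intervals over barcodes. The group without Mmp12 or Ccr2 is at 22.5% and 26.1%, the group with Mmp12 at 4.69% and 15.5%, and the MHC-II-low group at 37.6% and 28.2%.

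MHC-II content varied widely among the MHC-II-high macrophages and was higher at 8 weeks. The summed H2-Aa, H2-Ab1 and H2-Eb1 UMIs of a barcode had a median of 122 at 3 weeks (quartiles 53 and 236.75, highest 883) and 197.5 at 8 weeks (quartiles 87 and 314.75, highest 849). Barcodes with 200 or more made up 31.3% at 3 weeks and 49.2% at 8 weeks, and barcodes with 20 to 49 made up 23.6% and 14.2%. Few barcodes lay just outside and just inside the limit of 20. Barcodes with 15 to 19 such UMIs (14 and 28 of them) had Cd74 at 3076 and 3773 CPM and Ms4a7 at 1796 and 2376 CPM, and those with 20 to 24 (18 and 22) had Cd74 at 4392 and 4475 CPM and Ms4a7 at 2157 and 2868 CPM. Stard13 was 368 and 411 CPM just outside and 212 and 695 CPM just inside, in opposite directions in the libraries, and Ciita was 0 and 24.7 CPM outside and 16.7 and 28.0 CPM inside.

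From the lowest to the highest of 4 bins of MHC-II UMIs, Cd74 went from 5850 to 24605 CPM at 3 weeks and from 5692 to 25616 CPM at 8 weeks. Ciita, the transactivator, went through 19.9, 31.1, 68.4 and 113 CPM at 3 weeks and through 20.7, 36.1, 130 and 180 CPM at 8 weeks. H2-DMa, a chain of the peptide exchange factor, went from 237 to 422 CPM and from 232 to 503 CPM. Ms4a7 showed no such course, at 2416 CPM in the lowest and 2196 CPM in the highest bin at 3 weeks and 2898 and 2414 CPM at 8 weeks. Apoe was likewise no higher in the highest bin, at 34819 against 29527 CPM and at 42407 against 34215 CPM. Within a bin the libraries lay close for Cd74, while Ciita in the third bin was 68.4 CPM at 3 weeks and 130 CPM at 8 weeks. As the bins were cut on MHC-II UMIs, deeper barcodes fall more often in the higher bins.

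**Figure D3:**
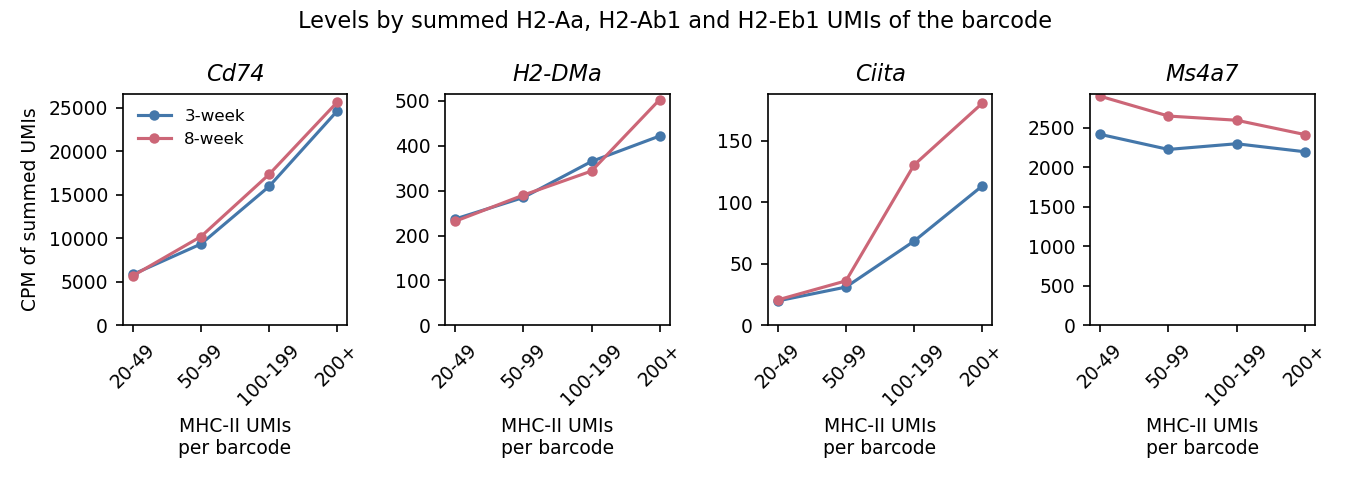
CPM of summed UMIs (y axes, from 0) of Cd74, H2-DMa, Ciita and Ms4a7 in MHC-II-high macrophages binned by their summed H2-Aa, H2-Ab1 and H2-Eb1 UMIs (x axis), for the 3-week and 8-week libraries. Cd74, H2-DMa and Ciita climb with the bins in both libraries, and Ms4a7 does not.

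By the bound of the ratio, Itgb8, Gabbr2, Gzmb, Pdgfc, H2-M2 and Ctsd came first among the genes that were higher in the MHC-II-high macrophages at 8 weeks than at 3 weeks, and Il1a, Ptgs2 and Clec4a1 were among those that were lower. A gene was counted as higher or lower when its CPM ratio was at least 2-fold with an interval excluding 1, among genes at 10 CPM or more in either library. By that rule 95 of 8531 genes, 1.11%, were higher at 8 weeks and 54, 0.633%, were lower. MHC-II-low barcodes gave 0.558% and 0.804% by the same rule, MHC-II-low barcodes under the same Sparc, Siglech, Mmp12, Ccr2, Cd79 and Cd3 limits 2.29% and 1.76%, B cell barcodes 0.402% and 0.695%, and T cell barcodes 0.495% and 0.399%. These groups differ in size and depth, and the ages differ by library in all of them.

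Itgb8, the integrin chain that activates latent TGF-beta, was 3.23 CPM at 3 weeks and 32.7 CPM at 8 weeks, with UMIs in 9 of 326 and 116 of 746 barcodes, a ratio of 10.1 (5.57 to 20.6). In MHC-II-low barcodes of the same limits it was 3.38 and 17.9 CPM, a ratio of 5.29 (2.32 to 14.1), and in the Mmp12-positive group 8.53 and 67.2 CPM. Itgb8 (GENCODE M21 on mm10, chromosome 12, 119158022 to 119238802) was at 0.12 and 0.333 CPM in B cell barcodes. Gabbr2, a subunit of the GABA-B receptor, was 4.69 and 28.9 CPM, with UMIs in 5 and 95 barcodes, a ratio of 6.16 (3.71 to 11.0). Its level in all MHC-II-low barcodes was 2.16 and 1.88 CPM. Pdgfc, a platelet-derived growth factor, was 10.3 and 41.0 CPM, with UMIs in 21 and 164 barcodes, a ratio of 3.99 (2.81 to 5.83). In MHC-II-low barcodes of the same limits Pdgfc was 21.7 and 43.5 CPM, so that the MHC-II-high macrophages were below them at 3 weeks and near them at 8 weeks.

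Ctsd, which encodes the lysosomal protease cathepsin D, was the most abundant of the named genes that were higher, at 836 CPM in 303 of 326 barcodes and 2088 CPM in 705 of 746, a ratio of 2.50 (2.40 to 2.60). Ctsd was also counted as higher in MHC-II-low barcodes of the same limits, at 2197 and 5210 CPM, a ratio of 2.37 (2.29 to 2.46), and was 47.5 and 60.0 CPM in B cell barcodes. It was the only gene of 20 tested in the lysosome list to be counted as higher, and the list's median log2 ratio was 0.05 beside 0.08 over all genes tested. Msr1, the scavenger receptor A, was 31.1 and 71.7 CPM, with UMIs in 54 and 265 barcodes, a ratio of 2.31 (1.87 to 2.87), and in MHC-II-low barcodes of the same limits it was 64.3 and 74.7 CPM. It was the single gene counted as higher of 11 in the scavenging and efferocytosis list, whose median was 0.26. Esr1, the oestrogen receptor alpha, was 6.75 and 15.6 CPM, and was the single gene counted of 10 tested hormone receptors. Mgl2, a lectin of dendritic cells and of some macrophages, was 9.10 and 23.7 CPM.

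The other genes named by the size of their bounds were at low levels. H2-M2, a non-classical MHC class I gene, was 3.81 and 18.2 CPM. Cacna1a, a calcium channel subunit, was 4.99 and 19 CPM, and Abcb4, a phospholipid transporter, 5.87 and 21.3 CPM. Nbea, a membrane trafficking protein, was 9.39 and 30.5 CPM, and Cd93, a C-type lectin-like receptor, 8.51 and 24.9 CPM. Iigp1, an interferon-induced GTPase, was 10.9 and 35.2 CPM. It was the single gene higher of 20 in the interferon response list, whose median was -0.05. Setbp1 was 4.99 and 16.5 CPM here and 187 and 246 CPM in B cell barcodes. Gzmb, a granzyme of cytotoxic lymphocytes, was 5.28 and 24.5 CPM with UMIs in only 6 and 20 barcodes, and stood at 266 and 235 CPM in T cell barcodes. It moved with the NK cell list, of which 3 of 6 tested genes were higher and whose Gzma was 23.2 and 106 CPM. The part of NK messages in the Gzmb value was not tested.

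**Figure D4:**
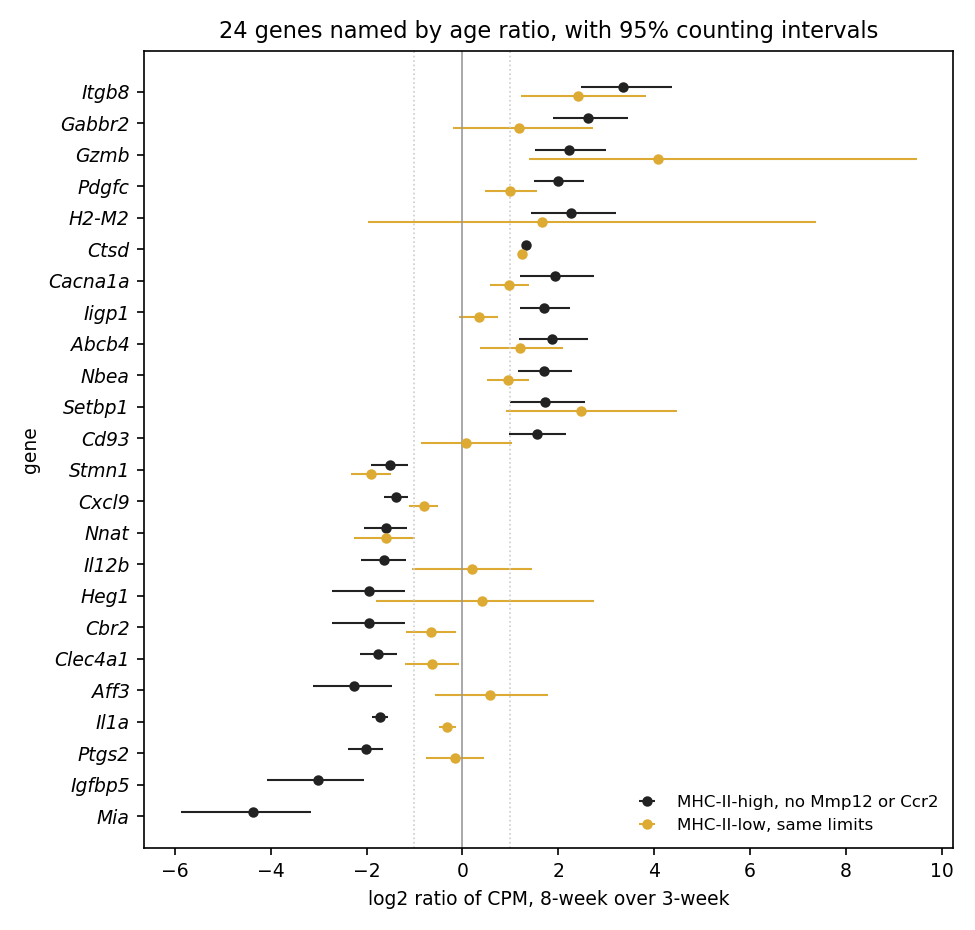
Log2 ratio of CPM, 8-week over 3-week (x axis), for 24 genes, with 95% counting intervals; black points are MHC-II-high macrophages without Mmp12 or Ccr2, yellow points MHC-II-low barcodes of the same limits, and dotted lines mark 2-fold. Itgb8, Ctsd, Stmn1 and Nnat lie on the same side in both groups, whereas Ptgs2 and Il1a lie near 0 in the MHC-II-low barcodes and low in the MHC-II-high ones; Igfbp5 and Mia had 0 UMIs at 8 weeks in the MHC-II-low barcodes and have no yellow point.

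Il1a and Ptgs2, both genes of the inflammatory response, were lower at 8 weeks. Il1a, which encodes interleukin-1 alpha, was 209 CPM in 117 of 326 barcodes at 3 weeks and 63.1 CPM in 144 of 746 at 8 weeks, a ratio of 0.302 (0.269 to 0.340). In MHC-II-low barcodes of the same limits Il1a was 311 and 250 CPM, a ratio of 0.804 (0.713 to 0.906). Ptgs2, the inducible cyclooxygenase, was 50.8 and 12.6 CPM, with UMIs in 40 and 32 barcodes, a ratio of 0.248 (0.191 to 0.320), and 25.6 and 23 CPM in the MHC-II-low barcodes of the same limits. In the Mmp12-positive group Il1a was 190 and 78.7 CPM and Ptgs2 23.2 and 13.5 CPM. Cxcl9, a chemokine induced by interferon gamma, was 86.3 and 33.1 CPM, a ratio of 0.384 (0.323 to 0.456), but came from 21 and 31 barcodes, and 1 barcode held 32.7% of its 3-week UMIs. Cd274, which encodes PD-L1, was 34.9 and 14 CPM, a ratio of 0.401 (0.306 to 0.525). Of 20 tested cytokines and chemokines 3 were lower (Il1a, Il12b and Cxcl9) and 0 higher, and the list's median log2 ratio was -0.51 beside 0.08 over all genes. The abundant ones were under the size rule, with Il1b at a ratio of 0.749 (0.732 to 0.765), Ccl3 at 2230 and 1566 CPM and Ccl4 at 5241 and 3659 CPM.

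Clec4a1, a C-type lectin, was 42.0 CPM in 76 barcodes and 12.4 CPM in 64, a ratio of 0.296 (0.226 to 0.387). Stmn1, a tubulin-binding protein of dividing cells, was 38.4 and 13.5 CPM, a ratio of 0.351 (0.268 to 0.458), and was lower in MHC-II-low barcodes of the same limits as well, at 118 and 31.7 CPM. The cell cycle list had 2 of 9 tested genes lower and a median of -0.66, with Mcm2, a DNA replication helicase subunit, at 12.9 and 5.89 CPM. Nnat, an imprinted membrane protein, was 29.0 and 9.56 CPM, and 44.9 and 14.8 CPM in MHC-II-low barcodes of the same limits. Of the border and perivascular list 3 of 8 tested genes were lower: Igfbp4, an IGF-binding protein, at 34.6 and 17.3 CPM, Cbr2, and F13a1, the coagulation factor XIII subunit, at 17.6 and 6.81 CPM. F13a1 took the opposite course in MHC-II-low barcodes of the same limits, at 41.1 and 92.1 CPM, and the difference between the groups was not tested.

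Some of the named genes rested on very few barcodes. F13a1 had UMIs in 6 of 326 barcodes at 3 weeks and 9 of 746 at 8 weeks, with 33.3% and 46.2% of them in 1 barcode. Il12b, the interleukin-12 subunit, was 27.0 and 8.64 CPM with UMIs in 3 and 7 barcodes, and 1 barcode held 92.4% of the UMIs at 3 weeks and 74.2% at 8 weeks. Of the 3-week UMIs of Cbr2, a carbonyl reductase, 65.1% lay in 1 barcode, and of those of Mia and Igfbp5, both secreted proteins, 54.5% and 32.6%. Mia was 16.1 and 0.785 CPM and Igfbp5 12.6 and 1.57 CPM. Aff3 (12.6 and 2.62 CPM) and Heg1 (12.6 and 3.27 CPM) were far higher in B cell barcodes, at 1581 and 1349 CPM for Aff3 and 351 and 305 CPM for Heg1. The B cell list went from 313 to 225 CPM in the MHC-II-high macrophages, and its part in these values was not tested. Pomc, the hormone precursor of the corticotroph and melanotroph cells, was 88.6 and 10.5 CPM, and 1 barcode held 89.4% of its 3-week UMIs.

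The antigen presentation genes themselves moved within the size rule. Ciita was 67.8 CPM in 118 of 326 barcodes and 134 CPM in 368 of 746, a ratio of 1.97 (1.71 to 2.28). Cd74 had a ratio of 1.25 (1.24 to 1.26) and H2-DMb1, the beta chain of the peptide exchange factor, of 1.45 (1.36 to 1.56). Of 16 tested genes of the MHC class II pathway 0 were counted in either direction, with a median log2 ratio of 0.20. Ciita was 3.87 and 3.58 CPM in MHC-II-low barcodes of the same limits and 95.8 and 138 CPM in B cell barcodes. Microglia genes (12 tested, median 0.00), macrophage core genes (13 tested, median 0.10), immediate-early genes (25 tested, median -0.04) and MHC class I genes (20 tested, median -0.01) had 0 counted in either direction.

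Of the 95 higher genes, 22 (23.2%) were also higher in MHC-II-low barcodes of the same limits, which is 10.9% of the 202 there, and of the 54 lower genes 16 (29.6%) were also lower, 10.3% of 155. Of these 95 and 54 genes 67 and 47 were tested there. With all MHC-II-low barcodes 5 higher and 12 lower genes were shared, 5.26% and 22.2% of the calls here and 10% and 16.7% of theirs. With B cell barcodes 4 higher and 2 lower genes were shared, 4.21% and 3.70% of the calls here and 12.1% and 3.51% of theirs. With T cell barcodes 1 higher and 5 lower genes were shared, 1.05% and 9.26% of the calls here and 2.44% and 15.2% of theirs. Of the 95 higher and 54 lower genes, 64 and 46 were tested in all MHC-II-low barcodes. In B cell barcodes 41 and 23 were tested, and in T cell barcodes 37 and 29. The percentages of the calls here thus include genes not tested in the other group. All groups come from the same libraries.

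MHC-II-low barcodes had at least 10 C1q UMIs and under 10 UMIs of H2-Aa, H2-Ab1 and H2-Eb1, and numbered 546 at 3 weeks and 807 at 8 weeks. They passed the same UMI and mitochondrial limits and carried none of the other limits. Of them 209 and 448 had 3 or more UMIs of Sparc and Siglech, the microglial genes that the rule kept out of the MHC-II-high group. A second comparator with the same limits on Mmp12, Ccr2, Sparc, Siglech, Cd79 and Cd3 numbered 226 and 252. Median depths were 11241 and 10626 UMIs for all of the MHC-II-low barcodes and 9009 and 8224 UMIs for those of the same limits. Of the MHC-II-low barcodes, 31 and 5 carried a barcode sequence also present in the other library.

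Cd74, Ciita and both H2-DM chains were higher in the MHC-II-high macrophages against either comparator. Of 8605 genes tested against all MHC-II-low barcodes, 101 (1.17%) were higher and 414 (4.81%) lower in both libraries. Against those of the same limits, 31 (0.373%) were higher and 72 (0.866%) lower of 8316. The comparisons share the MHC-II-high macrophages, and 19 genes were higher in both of them, 18.8% of the 101 and 61.3% of the 31. The genes lower in both were 55, 13.3% of the 414 and 76.4% of the 72.

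Cd74 was 540 and 451 CPM in all MHC-II-low barcodes, against 15795 and 19703 CPM in the MHC-II-high macrophages, a ratio of 29.2 (28.3 to 30.2) at 3 weeks and 43.7 (42.4 to 45.1) at 8 weeks. Against barcodes of the same limits the ratios were 21 (19.96 to 22.1) and 25.5 (24.2 to 26.8). Ciita (chromosome 16, 10480059 to 10528418) had ratios of 22.4 (14.3 to 36.9) and 41.6 (28.8 to 62.4), and of 17.5 (8.75 to 41.1) and 37.3 (18.0 to 93.0) against the same limits. H2-DMb1, at 327 and 476 CPM, had ratios of 7.85 and 8.44, and of 7.88 and 7.75 against the same limits. Its near copy H2-DMb2 was 7.92 and 7.72 CPM, and reads could be split between these copies. H2-DMa, at 344 and 413 CPM, had ratios of 2.63 and 2.65, and of 2.34 and 2.42. These were 4 of the 16 tested genes of the MHC class II pathway, and 4 of 15 against the same limits. Other genes of the route did not pass the size rule in both libraries. Ctss, the protease that cuts the invariant chain, stood at 3656 and 3827 CPM against 3272 and 3736 CPM in barcodes of the same limits, and Ifi30, the lysosomal thiol reductase, at 251 and 148 against 243 and 174 CPM. H2-Oa, a chain of the modulator of H2-DM, stood at 31.1 and 27.1 against 15.9 and 11.3 CPM, ratios of 1.95 (1.31 to 2.98) and 2.41 (1.55 to 3.93), the second past 2-fold. The list's median log2 ratio against the same limits was -0.02 at 3 weeks and 0.01 at 8 weeks, beside -0.08 and -0.05 over all genes tested.

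Apart from antigen presentation, a small number of genes were higher against both comparators. Itgax, which encodes CD11c, was 102 and 100 CPM against 41.1 and 36.8 CPM in barcodes of the same limits, a ratio of 2.49 (1.96 to 3.2) and 2.72 (2.13 to 3.51). Lgals3, which encodes galectin-3, was 146 and 221 against 58.0 and 105 CPM, with ratios of 2.51 and 2.10. Hs3st3a1, a heparan sulphate sulphotransferase, was 30.2 and 64.1 against 9.18 and 31.7 CPM, with ratios of 3.29 and 2.02. Sh2d1b1, a signalling adaptor, was 51.1 and 46.7 against 17.9 and 10.7 CPM. Hepacam2, an adhesion protein, was 12.9 and 20.7 against 3.38 and 7.16 CPM, and the receptor gene Gpr31b 34.0 and 16.2 against 16.9 and 6.65 CPM. Cxcl1, a neutrophil-attracting chemokine, was 10.9 and 14 against 0.966 and 0.511 CPM, ratios of 11.2 (2.90 to 96.2) and 27.4 (4.81 to 1092), with UMIs in only 8 of 326 and 22 of 746 of the MHC-II-high macrophages.

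Several genes that separated the MHC-II-high macrophages from all MHC-II-low barcodes did so much less against barcodes of the same limits. Ms4a7 had ratios of 2.42 and 3.57 against all, and of 1.15 (1.11 to 1.20) and 1.21 (1.17 to 1.25) against the same limits, where it was 1972 and 2093 CPM. Stard13 had ratios of 3.46 and 6.01 against all, and of 1.53 (1.38 to 1.71) and 1.89 (1.71 to 2.08) against the same limits. Il1b had ratios of 2.69 and 2.63, and then 1.71 and 1.66. Pparg, the lipid-sensing nuclear receptor, had ratios of 3.55 and 4.96, and then 2.17 and 1.96. Klra2, of the Ly49 family whose close copies can share reads, had ratios of 3.93 and 8.48, and then 1.96 and 3.07, and Plbd1, a phospholipase B-like protein, 3.45 and 8.24, and then 1.85 and 2.60. The size of these ratios thus depended on which MHC-II-low barcodes were taken.

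**Figure D5:**
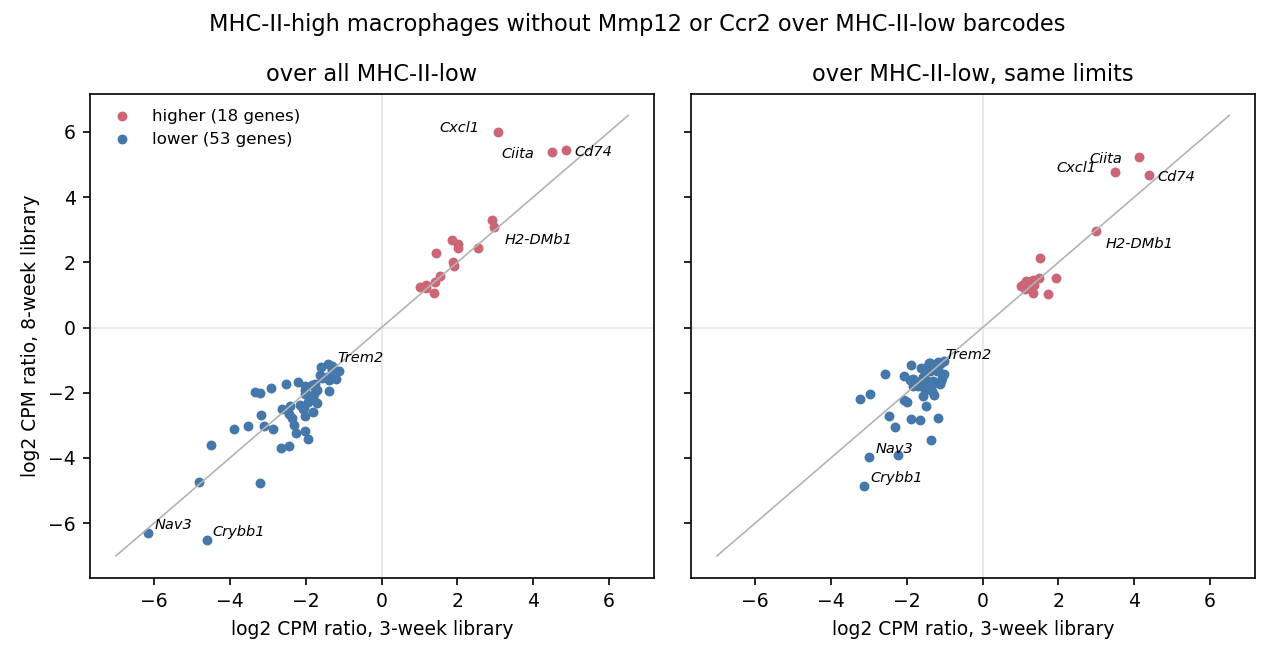
Log2 CPM ratio of MHC-II-high macrophages over MHC-II-low barcodes in the 3-week library (x axis) and the 8-week library (y axis), over all MHC-II-low barcodes (left) and over those of the same limits (right), for the 71 genes counted in the same direction against both and open to naming; the line marks equal ratios. Cd74, Ciita and Cxcl1 lie farthest up in both panels, and Nav3 and Crybb1 far down in both, nearer to 0 in the right panel.

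On the lower side, microglial genes led the comparison with all MHC-II-low barcodes. Nav3, neuron navigator 3, was 3.23 and 4.58 CPM against 230 and 360 CPM, ratios of 0.0140 and 0.0127, and Crybb1, a crystallin found in microglia, was 3.52 and 1.05 against 86.2 and 95.9 CPM. Against barcodes of the same limits Nav3 was compared with 25.6 and 72.1 CPM and Crybb1 with 30.9 and 30.7 CPM, and both stayed lower. The homeostatic microglia list had 8 of 15 tested genes lower against all MHC-II-low barcodes and 1 of 12, Trem2, against those of the same limits. Trem2, a lipid receptor of microglia and macrophages, was 251 and 421 CPM against 559 and 892 CPM, ratios of 0.450 (0.411 to 0.492) and 0.472 (0.446 to 0.501). P2ry12, a purinergic receptor of microglia, was 104 and 128 CPM against 298 and 418 CPM in all MHC-II-low barcodes and 172 and 202 CPM in those of the same limits. Many of the other named genes on this side were lymphocyte genes, Cd6, Themis, Cd8b1, Lef1 and Slamf1, and the T cell list summed to 98.6 and 113 CPM in the MHC-II-high macrophages against 670 and 586 CPM in all MHC-II-low barcodes. The rule limited Cd3 in the MHC-II-high group and not in that comparator. Without barcodes of 5 or more UMIs of T and NK genes, 226 genes were lower in place of 414. Against the same limits Cd8b1 and Lef1 were on the other side at 3 weeks, with intervals that span equal levels.

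Lower against both comparators were also Ctsd, Gas6, Itgam, Ccl2, Ccl7 and Klf2. Ctsd was 836 and 2088 CPM against 2197 and 5210 CPM in barcodes of the same limits, ratios of 0.38 (0.363 to 0.399) and 0.401 (0.391 to 0.411). Gas6, a ligand that bridges dying cells to the receptor Mertk, was 17.6 and 16.9 against 70.5 and 82.4 CPM, ratios of 0.25 and 0.205. Mertk itself was 178 and 279 against 325 and 537 CPM, ratios of 0.548 and 0.520 that were under the size rule there. Itgam, which encodes CD11b, was 34.9 and 52.9 against 79.2 and 111 CPM, ratios of 0.441 and 0.476, in the opposite direction to Itgax. Against the same limits, Itgax was higher and 3 of 9 tested complement genes, C3, C4b and Itgam, were lower. Against all MHC-II-low barcodes Itgax was higher and 2 of 8, C4b and Itgam, were lower. Ccl2 was 61.6 and 35.9 against 173 and 191 CPM and Ccl7, which also binds Ccr2, 6.75 and 6.81 against 31.9 and 101 CPM, with 61.5% of the 8-week Ccl7 UMIs of the MHC-II-high macrophages in 1 barcode. Klf2, a transcription factor of quiescence, was 253 and 168 against 516 and 454 CPM. Of the border and perivascular list 5 of 9 tested genes (F13a1, Pf4, Cbr2, Gas6 and Cd38) were lower against the same limits. The list's median log2 ratio there was -1.49 at 3 weeks and -2.10 at 8 weeks. Against all MHC-II-low barcodes 2 of 8 tested genes of that list, Gas6 and Ccl24, were lower.

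By genes counted in both libraries, the MHC-II-high barcodes with Mmp12, 68 and 442 of them with any Ccr2, were the most like. Only 2 of 8193 genes (0.0244%) were higher and 58 (0.708%) lower in those without Mmp12 in both libraries. In the 3-week library alone 1.82% of 8450 genes were higher and 2.2% lower. Against MHC-II-low barcodes of the same limits these were 1.04% and 2.29% of 8562, so the order did not hold there. Cd74 was 15795 and 19703 CPM without and 19180 and 23986 CPM with Mmp12, ratios of 0.824 and 0.821. Ms4a7 ratios were 1.14 and 1.14, Stard13 ratios 0.935 (0.823 to 1.06) and 1.06 (1.01 to 1.12), and 0 of 13 macrophage core, 0 of 20 lysosome and 0 of 16 MHC class II pathway genes were counted.

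Cxcl9 was the one named gene higher without Mmp12, at 86.3 and 33.1 against 1.22 and 8.22 CPM. The 3-week value with Mmp12 was 1 UMI, which gave a ratio of 70.8 (12.6 to 2805), and the 8-week ratio was 4.03 (2.94 to 5.62). Next by bound came Ccl12, a ligand of Ccr2, at 646 and 433 against 352 and 219 CPM, and Cxcl10, another chemokine induced by interferon, at 505 and 329 against 216 and 209 CPM. Their ratios of 1.83 and 1.98, and of 2.34 and 1.58, did not pass the size rule in both libraries. Lower without Mmp12 were Cd36, the fatty acid translocase, at 62.2 and 98.2 against 171 and 222 CPM with ratios of 0.365 (0.293 to 0.455) and 0.443 (0.404 to 0.485), and Lpl, lipoprotein lipase, at 116 and 81.7 against 252 and 169 CPM, ratios of 0.461 and 0.482. They were 2 of 13 tested genes of lipid handling. Mmp13, a collagenase in the same gene family as Mmp12, was 48.4 and 49 against 127 and 101 CPM.

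S100a6, a calcium-binding protein, and Anxa2, annexin A2, were lower as well, S100a6 at 18.5 and 19.8 against 65.8 and 86.6 CPM and Anxa2 at 12.3 and 17.1 against 51.2 and 48.1 CPM. Of 7 tested genes of the monocyte list 4 were lower (S100a4, S100a6, S100a10 and Plac8). Barcodes with Mmp12 could also carry Ccr2, and the part of those with Ccr2 in these values was not tested. Clec9a, a receptor of cross-presenting dendritic cells, was 2.64 and 6.41 against 23.2 and 34.1 CPM, and Csf1, the macrophage growth factor, 3.23 and 3.27 against 15.8 and 16.6 CPM. The lymphocyte genes Klra8, Styk1 and Tox were also lower. Without barcodes of 2 or more UMIs of T and NK genes the log2 ratio was 1.43 (-1.31 to 6.84) for S100a6 at 3 weeks and 0.25 (-1.97 to 2.88) for Tox at 8 weeks, with intervals that span 0. Klra8 and Tox with Mmp12 rested on 1 barcode at 3 weeks, which held 100% and 91.4% of their UMIs, and Csf1 on 1 barcode with 92.3% at 3 weeks and 82.1% at 8 weeks. The NK cell list stood at 88.6 and 219 CPM without and 412 and 334 CPM with Mmp12. Leaving out barcodes with 5 or more UMIs of T and NK genes, the genes lower without Mmp12 were 27 in place of 58, and those higher 6 in place of 2.

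The barcodes with Ccr2 and no Mmp12, 66 and 173 of them, differed more. Of 8525 genes 60 (0.704%) were higher and 331 (3.88%) lower in those without Ccr2 in both libraries. Monocyte and dendritic cell genes were lower without Ccr2, in 9 of 10 and 7 of 8 tested genes of these lists. S100a4, a calcium-binding protein of monocytes, was 12.6 and 14.3 against 187 and 288 CPM, ratios of 0.0674 (0.0472 to 0.0944) and 0.0496 (0.0402 to 0.0607), and S100a6 18.5 and 19.8 against 255 and 350 CPM. Plac8 was 16.7 and 6.81 against 97.2 and 294 CPM, Ly6c2, which marks classical monocytes, 3.23 and 6.41 against 25.6 and 60.8 CPM, and Napsa, an aspartic protease, 17.0 and 15.7 against 145 and 168 CPM. Cd209a, a lectin of monocyte-derived dendritic cells, was 2.35 and 1.83 against 119 and 122 CPM, and Flt3, the dendritic cell growth factor receptor, 2.64 and 3.8 against 32.8 and 25.1 CPM. Retnla and Slit2 had 0 UMIs in the MHC-II-high macrophages of both libraries, and Retnla stood at 176 and 26.9 CPM with Ccr2. Ccl17, a chemokine of dendritic cells, had 0 CPM at 3 weeks and 0.262 CPM at 8 weeks, against 27.6 and 22.9 CPM. These 3 rested on 1 barcode of the Ccr2-positive group in each library, which held 99.4% and 100% of the Retnla UMIs, 89.5% and 100% of those of Slit2, and 96.3% and 93.7% of those of Ccl17.

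Genes of iron export, Igf1, Tnf and several chemokines were higher without Ccr2. Slc40a1, the iron exporter ferroportin, was 45.2 and 49.4 against 7.16 and 19.7 CPM, ratios of 6.31 (2.99 to 16) and 2.51 (1.88 to 3.40), and Spic, the factor of iron-recycling macrophages, 44.3 and 45.6 against 12.3 and 20.4 CPM. They were 2 of 11 tested genes of iron and haem. Igf1, insulin-like growth factor 1, was 43.4 and 82.6 against 9.21 and 40.4 CPM, and Fcrls, a microglial Fc receptor-like gene, 359 and 446 against 132 and 222 CPM. Tnf was 115 and 79.1 against 43.0 and 32.4 CPM, and the chemokines Ccl3 and Ccl4 had ratios of 2.37 and 2.26, and of 2.33 and 2.09. With Cxcl1 they made 4 of 18 tested cytokines that were higher, while 2, Ccl5 and Ccl9, were lower. Stard13 had ratios of 2.44 (2.05 to 2.94) and 2.34 (2.13 to 2.56), and Ms4a7 of 1.82 and 1.60. By the size of the bound, Ccn1, an immediate-early matricellular gene, came first at 55.5 and 57.9 against 7.16 and 16.4 CPM, followed by Ptprm, a receptor phosphatase, at 232 and 209 against 69.6 and 72.8 CPM, Rapgef5, a Rap exchange factor, and Cpne8. Abca14 was 22.3 and 19.8 CPM against 0 and 5.10 CPM. Its 3-week ratio was 7.26 with the 0 set at a floor of 3 UMIs over the group. Hspa1b, a heat shock gene whose near copy Hspa1a can share its reads, had ratios of 2.89 and 2.46, and Atf3, another stress gene, was 2205 and 1704 against 960 and 849 CPM.

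MHC-II itself was not lower in the Ccr2-positive group. Cd74 was 19939 and 20089 CPM there, ratios of 0.792 and 0.981, and Ciita 147 and 186 CPM, ratios of 0.460 (0.372 to 0.570) and 0.716 (0.644 to 0.798). H2-DMb2 was the 1 gene of 17 in the pathway that was lower without Ccr2 in both libraries. The NK cell list stood at 873 and 1376 CPM with Ccr2 against 88.6 and 219 CPM without, and 7 of its 7 tested genes were lower. Endocrine genes stood at 4682 and 2372 CPM with Ccr2, and 1 barcode held 90.6% and 89.3% of those UMIs. Leaving out barcodes with 5 or more UMIs of T and NK genes, 149 genes were lower without Ccr2 in place of 331.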

How the data were processed

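Raw UMI counts per gene and barcode were deposited by the authors. Cell Ranger 7.1.0 and the mm10 build are named in the submitters' processing notes. The labels name the v2 kit of the 10x 3′ assay. The sources used here do not say whether intronic reads were counted, which bears on the levels of long genes such as Gabbr2, Cacna1a, Nbea, Setbp1, Nav3 and Stard13. Filters, sums, CPM and ratios were computed from the counts with Python 3.11.15 (numpy 2.4.6, pandas 2.3.3, scipy 1.17.1). Doublets were scored with Scrublet in scanpy 1.11.5 at 0.8% per 1000 barcodes, and marked barcodes were kept.

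The barcodes and the 38 gene lists were chosen with earlier results of these data known, so agreement with the lists is no independent evidence. Counts were summed over the barcodes of a group. Each CPM ratio has a 95% Poisson interval, exact given the summed count, and each share a Clopper-Pearson interval. Both cover counting error only, and with 1 library at each age no p-value was computed. A gene at 0 was set to a floor of 3 UMIs. Comparisons between barcode groups counted a gene only if it passed in the same direction in both libraries, and left out the 15 genes of the rule. Depth is the summed 3407928 UMIs at 3 weeks and 7638970 at 8 weeks. B cell barcodes had at least 5 UMIs of Cd79a and Cd79b, T cell barcodes at least 3 of Cd3d, Cd3e and Cd3g, both with under 3 of C1q.

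Named genes were the 12 and 12 with the strongest interval bound for age and against MHC-II-low barcodes, 6 and 6 against the Mmp12 and Ccr2 groups, and up to 4 of each list or those needed to describe a count, leaving out genes under 10 CPM in both groups, genes of the mitochondria, ribosome, haemoglobin, immunoglobulins and T cell receptors, sex-linked and predicted genes, those of other cells and those of the rule. Named beside them after their values were seen were Pomc, Gzma, Gh, Atf3, Mertk, P2ry12 and the low-level marker genes. The comparator of the same limits was fixed as an alternative. A few results are not reported here. The ratio script was checked on simulated Poisson counts. These leave out the gathering of a gene's UMIs in single barcodes, so the check does not cover it. Gene positions are from GENCODE M21 on mm10, and promoters from RefSeq.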

Additional observations from a re-analysis of the deposited data

Results flagged for a closer look

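A few genes lay on opposite sides in the 2 libraries, each past 2-fold with an interval excluding 1. Whether the libraries differ in these ratios was not tested, and no explanation was tested. Against MHC-II-low barcodes of the same limits, Gcnt2, a glycan-branching enzyme, had a ratio of 2.53 at 3 weeks (75 against 18 UMIs) and 0.446 at 8 weeks (115 against 66 UMIs). Ctla2a, a protease inhibitor, had ratios of 2.48 (45 against 11 UMIs) and 0.423 (38 against 23 UMIs), with 55.6% of the 45 in 1 barcode. In single libraries 1.04% of 8562 genes were higher at 3 weeks and 2.24% of 8752 lower at 8 weeks in that comparison.

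F13a1, a gene of border macrophages, showed this against both MHC-II-high groups. It was 17.6 and 6.81 CPM in the macrophages without Mmp12 or Ccr2, from only 6 of 326 and 9 of 746 barcodes. With Mmp12 it had 0 UMIs at 3 weeks, a ratio of 4.82 with the 0 set at the floor of 3 UMIs. At 8 weeks it had 189 UMIs with Mmp12, a ratio of 0.206. With Ccr2 it had 6 and 187 UMIs, ratios of 2.87 and 0.100. Bhlhe40, a transcription factor, had ratios of 2.77 (1.01 to 10.6, on 4 UMIs with Mmp12) and 0.357 against the Mmp12 group. Against the Ccr2 group the opposite order held, lower at 3 weeks and higher at 8 weeks, for Nbea (ratios 0.278 and 2.26), Cbx6 (0.297 and 2.81) and Maged1 (0.218 and 2.11). At 3 weeks 1 barcode with Ccr2 held 90.9% of the 33 Nbea UMIs and 73.9% of the 46 Maged1 UMIs there, so these 3-week ratios rest on 1 barcode.

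Of all genes, without against with Mmp12, 1.82% of 8450 were higher and 2.2% lower at 3 weeks, and 0.128% of 8612 higher and 1.7% lower at 8 weeks. Without against with Ccr2, 2.62% of 9087 were higher and 9.74% lower at 3 weeks, and 1.9% of 8941 higher and 5.75% lower at 8 weeks.

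The 1-week library, which enters no comparison, held 9 barcodes that met the rule, above the 3 that a count of 0 allows.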

How the results depend on the processing

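Of the counts and shares recomputed under other settings, 58 kept their value within the limit (1.5 times for counts, the binomial interval for shares) and 42 moved. For single genes 1083 values stayed within the limit, 232 moved and 12 reversed. Another 17 gave no value. In these 1 group had 0 UMIs and the floor of 3 lay beyond the level of the other, or both groups had 0. Both had 0 for Ccl17 and Retnla over Ccr2 at 3 weeks without barcodes of 2 or more UMIs of T and NK genes. No paired analysis was possible because each age has 1 library. The settings that left out barcodes with 5 or more, or 2 or more, UMIs of T and NK genes were chosen after seeing the data. The counts below give higher, then lower genes. With no CPM minimum they were 310 and 236 for age, 161 and 788 over MHC-II-low, 4 and 100 over Mmp12 and, for lower genes, 569 over Ccr2. With a minimum of 50 CPM they were 9 and 11, 46 and 138, 0 and 6, and 26 and 105. With barcodes thinned to 1500 UMIs they were 174 and 109, 65 and 250, 4 and 4, and 23 and 107. With the mean of per-barcode CPM they were 5 and 27 over Mmp12. With the same limits on MHC-II-low they were 31 and 72. Without barcodes of 5 or more T and NK UMIs, 226 were lower over MHC-II-low, 6 and 27 were counted over Mmp12, and 149 were lower over Ccr2. Without those of 2 or more, 160 were higher with age, 234 lower over MHC-II-low, 5 and 19 over Mmp12, and 110 lower over Ccr2. The share of barcodes that met the rule was 6.23% and 11.1% with the C1q and MHC-II limits doubled, 8.44% and 15.1% with 1 UMI of Mmp12 and Ccr2 allowed, and 12.6% and 22.3% with the rule applied to thinned barcodes.

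Reversed log2 ratios over MHC-II-low at 3 weeks were Cd8b1 at 0.87 and Lef1 at 0.45 with the same limits. Without barcodes of 5 or more T and NK UMIs they were Themis at 0.40, Cd8b1 at 0.60 and Lef1 at 0.18, and without 2 or more Themis at 0.47 and Cd8b1 at 0.79. At 8 weeks Lef1 was 0.23 and 0.10 under these settings. Over Mmp12, S100a6 at 3 weeks 1.43 without 2 or more such UMIs, and Tox at 8 weeks 1.08 and 0.25 under both settings. Each of these intervals spans 0, and fewer UMIs entered each of them. The cause was not tested. Depth limits genes of few UMIs most, and no setting replaces the missing replicate at each age.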
